A study of Homo sapiens with 8 samples.

Results

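The enzymes that build cholesterol and fatty acids were followed through both RNA-seq experiments of the study. The set held 31 genes, taken by symbol from both count tables. MSMO1 and SC5D were listed under these names in both, and their older symbols SC4MOL and SC5DL in neither. It was 31 of the 42125 genes listed for the siRNA experiment and 31 of the 23393 listed for the SAE2 kd experiment. The sterol arm had 19 enzymes and the fatty acid arm had 12, and all 31 passed the filter on low counts in both tables.

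All 8 libraries came from HCT116, an established colon cancer line, here carrying a stable Tet-On shSAE2 construct that makes a short hairpin RNA when doxycycline is given. SAE2 is the protein of the UBA2 gene, one subunit of the enzyme that activates SUMO, a small protein that is attached to other proteins. In the siRNA experiment, TFAP2C siRNA (2 libraries) was compared with control siRNA (2 libraries) after 48 h in that same shSAE2 line. TFAP2C is a transcription factor of the AP-2 family. In the other experiment, SAE2 kd (2 libraries, doxycycline at 1 μg/mL for 5 days) was compared with control (2 libraries, DMSO for 5 days). No library had doxycycline without the hairpin, so the effects of the drug and of the hairpin cannot be told apart. The study asked how loss of SUMOylation or of TFAP2C changed gene expression.

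Both pathways start from acetyl-CoA in the cytosol. The sterol arm joins acetyl units into mevalonate, turns mevalonate into isoprenoids and squalene, and closes and trims the squalene into cholesterol. The fatty acid arm builds palmitate, then elongates, desaturates and activates it for use in lipids. Many enzymes of both arms are known targets of the SREBP transcription factors, which are held inactive when cell sterol is high, and dividing tumour cells use both pathways to make membrane.

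Total counts were 20785035 to 24465109 per library in the siRNA experiment and 18213739 to 20607813 in the SAE2 kd experiment. Levels are given as CPM, the count scaled to the library total after TMM, which adjusts each library for its composition, and as RPKM (CPM per kilobase of the gene length in the deposited table) where genes are compared with each other. TFAP2C itself stood at 18.9 and 20.5 CPM in control siRNA and at 3.46 and 4.3 CPM in TFAP2C siRNA (log2 fold change -2.34, adjusted p = 7.67e-06). UBA2 stood at 162 and 146 CPM in control and at 147 and 153 CPM in the libraries labelled SAE2 kd (log2 fold change -0.04, adjusted p = 0.766). The UBA2 mRNA therefore does not show the knockdown, and every direction given for SAE2 kd rests on the label. The study assayed Uba2 protein after doxycycline in a separate measurement, which is not analysed here. Of the 7 epithelial markers checked, EPCAM, KRT8, KRT18, KRT19, CDH1 and ELF3 were expressed in both experiments (69.2 CPM or more in every control library) and LGALS4, an intestinal lectin, was at or near 0. The other cell type markers PTPRC, COL1A2, PECAM1, ALB, ADIPOQ and PLIN1 were at 0 or under 1 CPM, and the collagen gene COL1A1 was at 14.9 to 21.8 CPM in the SAE2 kd experiment and 43.2 to 47.5 CPM in the siRNA experiment. Nothing in the labels says that replicates were separate cultures, so p-values measure the spread between these libraries, which may be technical.

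In the libraries labelled SAE2 kd, 24 of the 31 enzymes were lower than control at an adjusted p under 0.05 and none was higher. The 24 were 16 of 19 sterol enzymes and 8 of 12 fatty acid enzymes. Of all 13381 genes tested, 4.47% were called lower and 5.52% higher. At an unadjusted p under 0.05, 2 enzymes, ACSS2 and ELOVL1, were higher, as were 1568 of all 13381 genes tested. The median log2 fold change was -0.50 over the sterol enzymes, -0.23 over the fatty acid enzymes and -0.00042 over all genes tested. A log2 fold change of -0.5 or lower was seen for 10 sterol and 2 fatty acid enzymes, against 3.55% of all genes. In bulk RNA, fewer cells of a type and less RNA per cell cannot be told apart. In TFAP2C siRNA none of the 31 passed the threshold, where 0.740% of 14991 genes were called, so a count of 0 is near the share over all genes. Calls are from edgeR's quasi-likelihood test with Benjamini-Hochberg adjustment over all genes tested.

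**Figure D1:**
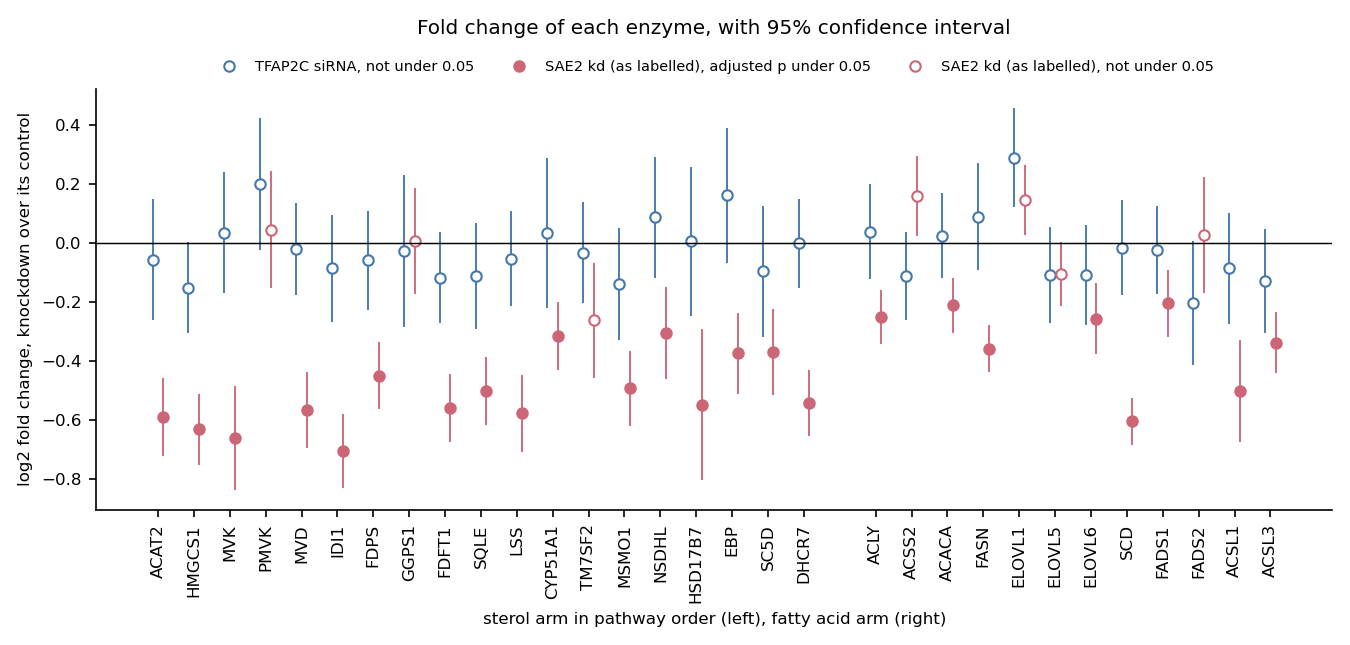
Log2 fold change of each enzyme (y axis) in pathway order (x axis), with its 95% confidence interval, for TFAP2C siRNA over control siRNA (blue) and SAE2 kd over control (red, filled where adjusted p was under 0.05). In SAE2 kd, 16 sterol and 8 fatty acid enzymes are filled and lie below 0, and none of the blue points passed.

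The sterol arm moved from its first step. ACAT2, which joins acetyl-CoA units in the cytosol, stood at 67.3 and 70.1 CPM in control and at 45.5 and 45.8 CPM in SAE2 kd (log2 fold change -0.59, SE 0.07, adjusted p = 4.10e-08). HMGCS1, which makes HMG-CoA, was at 172 and 181 CPM in control and at 106 and 122 CPM in SAE2 kd (-0.63, SE 0.06, adjusted p = 1.08e-09). MVK, mevalonate kinase, was at 30.6 and 28.6 CPM in control and at 18.4 and 18.96 CPM in SAE2 kd (-0.66, SE 0.09, adjusted p = 1.11e-06). Both SAE2 kd libraries were below both controls for each of these enzymes. PMVK, which adds the next phosphate, stood out from its neighbours at 16.8 and 16.7 CPM in control and 17.5 and 17.03 CPM in SAE2 kd (0.04, 95% interval -0.15 to 0.24). MVD, the decarboxylase that ends the mevalonate segment, was lower again, at 84.3 and 91.0 CPM in control and 59.0 and 59.3 CPM in SAE2 kd (-0.57, SE 0.06, adjusted p = 4.00e-08).

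The isoprenoid segment held the sterol enzyme with the lowest fold change. IDI1, the isomerase that makes dimethylallyl diphosphate (hg19 chr10:1085964-1102644), was at 135 and 138 CPM in control and at 78.2 and 89.6 CPM in SAE2 kd, and fell by 38.7% (log2 fold change -0.71, SE 0.06, adjusted p = 2.28e-10). FDPS, which makes farnesyl diphosphate, was at 133 and 134 CPM in control and 96.1 and 98.9 CPM in SAE2 kd (-0.45, SE 0.06, adjusted p = 3.64e-07). Farnesyl diphosphate is a branch point. FDFT1, squalene synthase, which takes it toward sterols, was at 235 and 250 CPM in control and 153 and 176 CPM in SAE2 kd (-0.56, SE 0.06, adjusted p = 5.83e-09). GGPS1, which takes it instead toward geranylgeranyl diphosphate, was at 25.3 and 26.6 CPM in control and 23.9 and 28.3 CPM in SAE2 kd (0.01, 95% interval -0.17 to 0.19). The GGPS1 libraries overlapped between groups, and it was the only sterol enzyme for which they did.

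From squalene to cholesterol, 9 of 10 enzymes were lower. SQLE, squalene epoxidase, was at 124 and 119 CPM in control and 86.5 and 85.1 CPM in SAE2 kd (-0.50, SE 0.06, adjusted p = 7.40e-08). LSS, which closes the rings into lanosterol, was at 86.5 and 97.1 CPM in control and 61.2 and 61.8 CPM in SAE2 kd (-0.58, SE 0.06, adjusted p = 4.43e-08). CYP51A1, the lanosterol demethylase that follows, had a smaller change, from 139 and 141 CPM to 107 and 118 CPM (-0.32, SE 0.06, adjusted p = 0.000178). TM7SF2, a sterol reductase whose step can also be done by another enzyme, was at 19.3 and 19.9 CPM in control and 16.2 and 16.5 CPM in SAE2 kd and did not pass (-0.26, 95% interval -0.46 to -0.07, adjusted p = 0.0783).

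MSMO1, the C4 methyl oxidase, was at 106 and 112 CPM in control and 72.6 and 82.1 CPM in SAE2 kd (-0.49, adjusted p = 5.97e-07). NSDHL, the C4 decarboxylating dehydrogenase, was at 37.0 and 38.4 CPM in control and 29.3 and 31.7 CPM in SAE2 kd (-0.31, adjusted p = 0.00761). HSD17B7, the 3-keto reductase of the same cycle, was low in all libraries, at 10.7 and 10.6 CPM in control and 6.996 and 7.57 CPM in SAE2 kd (-0.55, SE 0.13, adjusted p = 0.00323). These 3 act in turn in the cycle that removes the C4 methyl groups, and all were below control in both SAE2 kd libraries. EBP, the sterol isomerase, was at 59.7 and 64.2 CPM in control and 49.3 and 46.3 CPM in SAE2 kd (-0.37, adjusted p = 0.000188). SC5D, the desaturase after it, was at 85.6 and 81.2 CPM in control and 57.9 and 71.1 CPM in SAE2 kd (-0.37, adjusted p = 0.000465), and its SAE2 kd libraries lay further apart than its controls. DHCR7, which ends the Kandutsch-Russell branch, was at 150.2 and 151 CPM in control and 105 and 102 CPM in SAE2 kd (-0.54, SE 0.05, adjusted p = 5.67e-09).

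The median log2 fold change was -0.59 over the 5 mevalonate enzymes, -0.51 over the 4 isoprenoid enzymes and -0.43 over the 10 enzymes from squalene to cholesterol, and the ranges of the 3 segments overlapped. No test of order along the pathway was made. Counted by library, both SAE2 kd libraries were below both controls for 17 of 19 sterol enzymes, as they were for 25.8% of all genes tested. For PMVK both SAE2 kd libraries were above both controls, and the share of all genes for which this held was not counted.

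**Figure D2:**
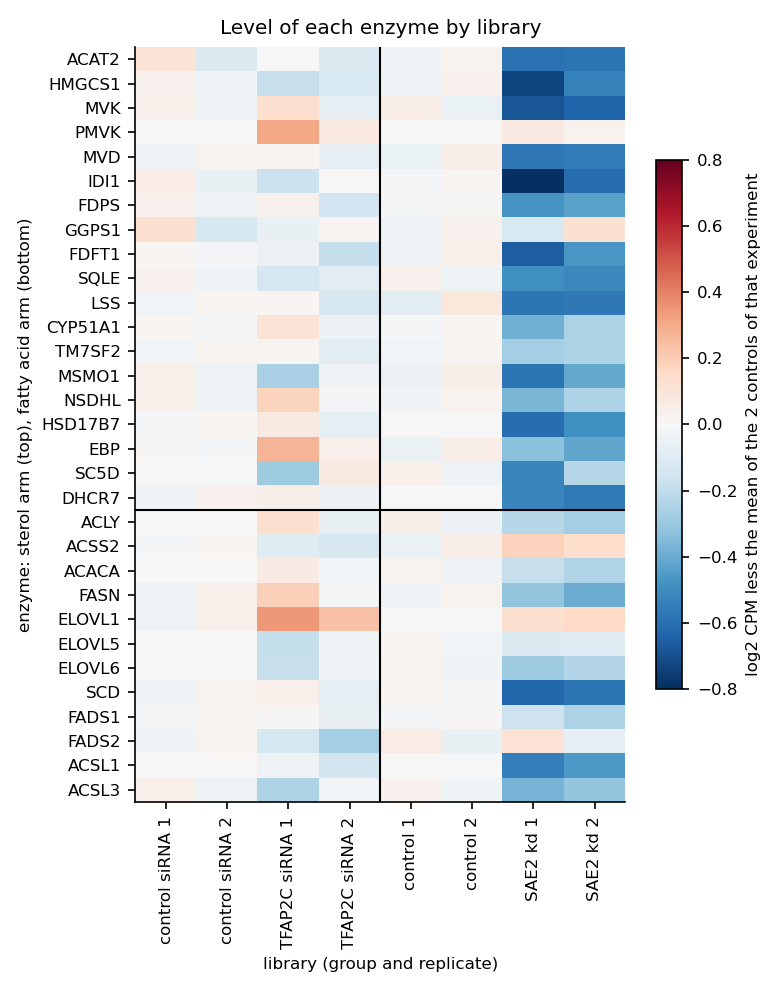
Log2 CPM of each enzyme (rows, sterol arm above the line and fatty acid arm below it) in each of the 8 libraries (columns), as the difference from the mean of the 2 controls of the same experiment, with blue for lower and red for higher. The SAE2 kd columns are blue for 17 of 19 sterol enzymes, from IDI1 as the lowest, with PMVK and GGPS1 as the exceptions, and in the fatty acid rows SCD and ACSL1 are the darkest.

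The fatty acid arm was lower at most steps. ACLY, which splits citrate into acetyl-CoA, was at 556 and 523 CPM in control and 460 and 446 CPM in SAE2 kd (-0.25, SE 0.04, adjusted p = 0.000153). ACSS2, which makes acetyl-CoA from acetate instead, was at 50.1 and 54.1 CPM in control and 59.2 and 57.3 CPM in SAE2 kd and did not pass (0.16, 95% interval 0.02 to 0.30, adjusted p = 0.141). ACACA, the acetyl-CoA carboxylase that commits carbon to fatty acids, was at 394 and 379 CPM in control and 340 and 327 CPM in SAE2 kd (-0.21, SE 0.05, adjusted p = 0.00178). FASN, fatty acid synthase (hg19 chr17:80036214-80056106), was at 2346 and 2431 CPM in control and 1915 and 1812 CPM in SAE2 kd (-0.36, SE 0.04, adjusted p = 2.97e-08). Both SAE2 kd libraries were lower than both controls for ACLY, ACACA and FASN, and higher than both for ACSS2.

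The largest change of a single fatty acid enzyme was that of a desaturase, SCD. The median log2 fold change over the 3 desaturases was -0.20, against -0.42 over the 2 acyl-CoA synthetases and -0.29 over ACACA and FASN. SCD, the stearoyl-CoA desaturase that puts the first double bond into palmitate and stearate (hg19 chr10:102106772-102124588), was at 1824 and 1792 CPM in control and 1169 and 1207 CPM in SAE2 kd, and fell by 34.3% (-0.61, SE 0.04, adjusted p = 2.63e-13). Of the sterol enzymes, IDI1, MVK and HMGCS1 had lower fold changes than SCD. FADS1, the delta-5 desaturase of polyunsaturated fatty acids, was at 126 and 127 CPM in control and 113 and 107 CPM in SAE2 kd (-0.20, SE 0.06, adjusted p = 0.0151). FADS2, the delta-6 desaturase, was at 19.9 and 18.3 CPM in control and 20.6 and 18.2 CPM in SAE2 kd, and its groups overlapped (0.03, 95% interval -0.17 to 0.22). FADS1 and FADS2 lie on opposite strands and overlap by 802 bp in the table of this experiment, and the strand setting of the counting was not given in the sources used here, so their counts may be partly shared.

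The elongases differed among themselves. ELOVL6, which extends palmitate to stearate, was at 98.6 and 94.7 CPM in control and 79.5 and 82.1 CPM in SAE2 kd (-0.26, SE 0.06, adjusted p = 0.00312). ELOVL5, which extends polyunsaturated chains, was at 141 and 137 CPM in control and 129 and 130 CPM in SAE2 kd (-0.11, 95% interval -0.22 to 0.00, adjusted p = 0.242). ELOVL1, which makes very long chains, was at 81.4 and 81.6 CPM in control and 89.3 and 91.1 CPM in SAE2 kd (0.15, 95% interval 0.03 to 0.27, adjusted p = 0.122). Only ELOVL6 of these 3 passed the test. Both acyl-CoA synthetases, which activate free fatty acids, were lower. ACSL1 was at 28.9 and 29.1 CPM in control and 19.9 and 21.1 CPM in SAE2 kd (-0.50, SE 0.09, adjusted p = 8.15e-05), and ACSL3 at 244 and 232 CPM in control and 184 and 192 CPM in SAE2 kd (-0.34, SE 0.05, adjusted p = 1.10e-05).

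Counted together, the sterol enzymes took 0.172% and 0.179% of all counts in control and 0.118% and 0.127% in SAE2 kd. The fatty acid enzymes took 0.594% and 0.597% in control and 0.453% and 0.446% in SAE2 kd. FASN and SCD alone gave 70.6% of the fatty acid counts in control replicate 1, so the second sum mostly follows these genes.

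Per length, levels ranged widely. In control, SCD was the highest at a mean of 331 RPKM, followed by FASN at 284, ACLY at 125 and FDPS at 81.4 RPKM. HSD17B7 was the lowest at 4.22 RPKM, with FADS2 at 4.75 and ACSL1 at 6.43 RPKM. The enzymes that did not pass were found at low levels, such as GGPS1 at 8.34 RPKM, and at middle levels, such as ELOVL1 at 45.9 RPKM.

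**Figure D3:**
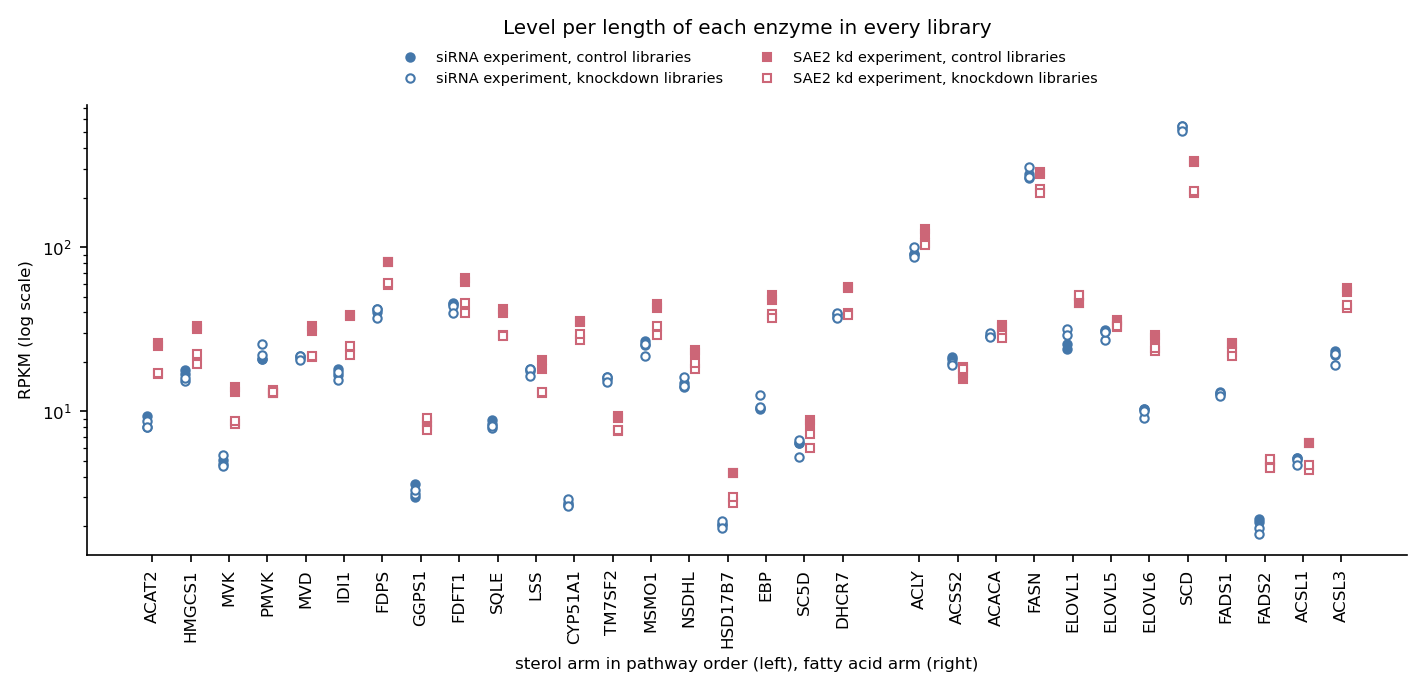
RPKM of each enzyme (y axis, log scale) in every library, with circles for the siRNA experiment and squares for the SAE2 kd experiment, filled for controls and open for knockdown libraries. SCD and FASN lie highest in both experiments and HSD17B7 and FADS2 are among the lowest, and the tables used other gene models, so levels are not compared between experiments.

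Because the sterol enzymes moved together in SAE2 kd, the stretches upstream of their starts were read for 4 motifs. Promoters were taken from RefSeq (GRCh38.p14, 250 bases before to 50 after the start nearest to that in the siRNA count table) for 27 of the 31 genes, 16 sterol and 11 fatty acid. ACAT2, FDFT1, SQLE and FASN were not matched. The CCAAT box, bound by NF-Y, which often works beside SREBP, was searched as CCAAT on both strands. It was found in 12 of 16 sterol and 6 of 11 fatty acid promoters, against 36.7% of the promoters of 9876 tested genes, and at least 2 boxes were found in 9 sterol and 3 fatty acid promoters against 13.8%. Among the genes called lower in SAE2 kd it was in 11 of 13 sterol and 3 of 7 fatty acid promoters. With the first start RefSeq lists for each gene, the counts were again 12 of 16 and 6 of 11, against 36.6%. No test was made of these counts.

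The 250 bases before the start are shown for the 5 enzymes with the lowest fold changes in SAE2 kd among those with at least 2 boxes, and for PMVK and GGPS1, the sterol enzymes with fold changes nearest to 0, as a choice made after their values were seen. LSS, with a lower fold change than MVD, had 1 box and is not shown. Capitals mark CCAAT on the strand of the gene, or ATTGG where the box is on the other strand. They read 5′ to 3′ on the strand of the gene.
IDI1: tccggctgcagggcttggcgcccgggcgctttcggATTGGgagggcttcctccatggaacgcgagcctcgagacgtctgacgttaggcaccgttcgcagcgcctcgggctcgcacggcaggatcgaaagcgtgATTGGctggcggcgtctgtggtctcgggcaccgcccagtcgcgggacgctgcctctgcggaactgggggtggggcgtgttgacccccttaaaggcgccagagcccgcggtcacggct
MVK: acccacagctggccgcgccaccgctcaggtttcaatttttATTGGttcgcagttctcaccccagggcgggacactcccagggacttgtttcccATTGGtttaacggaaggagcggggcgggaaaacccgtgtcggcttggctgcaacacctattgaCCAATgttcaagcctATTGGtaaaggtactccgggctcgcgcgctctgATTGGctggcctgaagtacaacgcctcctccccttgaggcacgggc
HMGCS1: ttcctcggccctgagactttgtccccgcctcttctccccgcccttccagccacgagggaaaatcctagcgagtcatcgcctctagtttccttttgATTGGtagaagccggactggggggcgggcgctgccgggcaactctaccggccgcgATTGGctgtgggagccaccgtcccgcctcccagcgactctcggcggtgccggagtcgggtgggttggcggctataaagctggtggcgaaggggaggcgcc
SCD: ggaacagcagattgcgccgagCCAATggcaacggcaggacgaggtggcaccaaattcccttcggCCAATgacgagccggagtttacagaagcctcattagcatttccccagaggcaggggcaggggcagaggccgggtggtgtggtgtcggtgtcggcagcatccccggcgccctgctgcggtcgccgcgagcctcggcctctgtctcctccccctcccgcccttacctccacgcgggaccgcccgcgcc
MVD: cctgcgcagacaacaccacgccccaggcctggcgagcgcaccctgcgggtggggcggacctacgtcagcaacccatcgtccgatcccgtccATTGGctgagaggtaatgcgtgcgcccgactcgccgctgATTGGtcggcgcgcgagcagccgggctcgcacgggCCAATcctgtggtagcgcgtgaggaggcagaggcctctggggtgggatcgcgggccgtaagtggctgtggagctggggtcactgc
PMVK: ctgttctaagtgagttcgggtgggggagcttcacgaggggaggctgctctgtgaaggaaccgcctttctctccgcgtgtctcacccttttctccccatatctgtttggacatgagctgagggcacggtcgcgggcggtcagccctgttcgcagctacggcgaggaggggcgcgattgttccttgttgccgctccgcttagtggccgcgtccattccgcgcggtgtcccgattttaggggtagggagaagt
GGPS1: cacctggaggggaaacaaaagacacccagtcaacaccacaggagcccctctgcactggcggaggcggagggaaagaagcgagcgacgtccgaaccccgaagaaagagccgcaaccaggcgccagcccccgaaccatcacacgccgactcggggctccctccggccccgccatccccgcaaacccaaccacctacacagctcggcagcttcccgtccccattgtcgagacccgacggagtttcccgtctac
These stretches lie at chr10:1049120-1049369 (minus strand) for IDI1, chr12:109573544-109573793 (plus) for MVK, chr5:43313413-43313662 (minus) for HMGCS1, chr10:100346983-100347232 (plus) for SCD, chr16:88663092-88663341 (minus) for MVD, chr1:154936720-154936969 (minus) for PMVK and chr1:235326966-235327215 (plus) for GGPS1.

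MVK carried 5 boxes, MVD 3, and IDI1, HMGCS1 and SCD 2 each, while PMVK and GGPS1 carried none. Since the first 5 were shown for having at least 2 boxes, this contrast is fixed by the choice. Other enzymes departed from it. NSDHL had 5 boxes with a log2 fold change of -0.31 and EBP 3 with -0.37, CYP51A1 and DHCR7 were called lower with no box in the window, and TM7SF2 had 1 box and was not called. In the fatty acid arm ACSL1, ACACA, ELOVL6 and FADS1 were called lower with no box. ELOVL5 had 2 boxes and ACSS2 and ELOVL1 1 each, and these were not called. The other way, ACLY, SCD and ACSL3 had boxes and were called lower, and FADS2 had none and was not called. The sterol regulatory element searched as TCACNCCAC was found in 0 of 27 members' promoters, against 1.03% of tested genes, and this says only that these letters were not in the window. The AP-2 palindrome GCCNNNGGC was found in 4 of 16 sterol and 4 of 11 fatty acid promoters, against 32.9% of tested genes, and the E-box CACGTG in 2 of 16 and 1 of 11, against 10.2%. In SCD and MSMO1 the palindrome overlaps a CCAAT box.

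TFAP2C siRNA left both arms near their controls. Log2 fold changes ran from -0.20 for FADS2 to 0.29 for ELOVL1, the 95% intervals of all 31 enzymes lay between -0.41 and 0.46, and the lowest adjusted p was 0.152. By the gene positions of this experiment, FADS2 overlaps FADS1 on the other strand by 29694 bp and FEN1 on its own by 4259 bp. GGPS1 overlaps TBCE on its own strand by 15963 bp. The counts of FADS2 and GGPS1 may therefore be affected by these neighbours. At an unadjusted p under 0.05 there was 1 enzyme, ELOVL1, where 1889 of all 14991 genes tested were under that p. DESeq2 called 0 of the 31 enzymes. The median was -0.03 over the sterol enzymes (0.024 without TFAP2C siRNA replicate 2) and -0.06 over the fatty acid enzymes. ELOVL1 was at 60.2 and 63.8 CPM in control siRNA and 78.7 and 72.8 CPM in TFAP2C siRNA (SE 0.08, adjusted p = 0.152). By edgeR it was called when all 8 libraries shared 1 fit (adjusted p = 0.0369). It was also called with a crossed replicate block, chosen after seeing the data (adjusted p = 0.0228). That block paired replicate 1 of each group with replicate 2 of the other. ELOVL1 was not called with other scaling, other filters or a block for replicate number. Without 1 library its log2 fold change ran from 0.23 to 0.35, and its call depended on the library left out.

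Enzymes that were low in SAE2 kd stayed close to control here. SCD was at 2753 and 2855 CPM in control siRNA and 2878 and 2668 CPM in TFAP2C siRNA (-0.02, 95% interval -0.18 to 0.15). IDI1 was at 78.6 and 72.3 CPM in control siRNA and 67.0 and 75.3 CPM in TFAP2C siRNA (-0.09, 95% interval -0.27 to 0.09). DHCR7 was at 156 and 163 CPM in control siRNA and 165 and 154 CPM in TFAP2C siRNA (-0.0013, 95% interval -0.15 to 0.15). The groups overlapped for SCD, IDI1 and DHCR7. HMGCS1 was at 118 and 112 CPM in control siRNA and 101 and 106 CPM in TFAP2C siRNA, with both TFAP2C siRNA libraries lower (-0.15, 95% interval -0.31 to 0.00, adjusted p = 0.397). Both TFAP2C siRNA libraries were below both controls for 3 sterol and 5 fatty acid enzymes and above both for 2 sterol and 1 fatty acid enzyme, where 22.4% of all genes tested were below and 22.4% above. As shares of all counts, the sterol enzymes took 0.140% and 0.136% in control siRNA and 0.131% and 0.128% in TFAP2C siRNA, and the fatty acid enzymes 0.686% and 0.702% against 0.718% and 0.666%.

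The TFAP2C siRNA libraries differed from each other for several enzymes. FASN was at 2445 and 2583 CPM in control siRNA and 2863 and 2486 CPM in TFAP2C siRNA. SC5D was at 64.0 and 64.4 CPM in control siRNA and 52.7 and 67.4 CPM in TFAP2C siRNA. For FASN, replicate 1 lay above both controls and replicate 2 between them, and for SC5D replicate 1 lay below both controls and replicate 2 above both. Without TFAP2C siRNA replicate 2, log2 fold changes ran from -0.28 for SC5D to 0.35 for ELOVL1. Those of HMGCS1, MSMO1, ELOVL5 and ACSL3 were -0.18, -0.26, -0.19 and -0.24, and those of PMVK, EBP and FASN were 0.31, 0.27 and 0.19. How many genes were called, enzymes among them, also depended on which library was left out. The absence of calls among the enzymes therefore rests on the fit with both TFAP2C siRNA libraries. CYP51A1 in this experiment rests on few reads, 9.26 to 10.3 CPM, and overlaps other listed genes on its strand.

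The change itself was compared between the experiments in 1 fit over all 8 libraries with an interaction term. The change in TFAP2C siRNA less the change in SAE2 kd passed for 13 enzymes, and in each SAE2 kd was the lower, where 0.903% of 13179 genes were lower in SAE2 kd. These were 11 of 19 sterol enzymes (ACAT2, HMGCS1, MVK, MVD, IDI1, FDPS, FDFT1, SQLE, LSS, EBP and DHCR7) and FASN and SCD of 12 fatty acid enzymes. The difference was 0.69 for MVK (SE 0.12, adjusted p = 0.00698), 0.61 for IDI1 (SE 0.11, adjusted p = 0.00770) and 0.58 for SCD (SE 0.07, adjusted p = 0.000458). The sterol enzymes CYP51A1, MSMO1, NSDHL, HSD17B7 and SC5D were called lower in SAE2 kd, yet their differences did not pass (0.26 to 0.54, lowest adjusted p = 0.0979 for HSD17B7). The same was true of the fatty acid enzymes ACLY, ACACA, ELOVL6, FADS1, ACSL1 and ACSL3 (0.14 to 0.40, lowest adjusted p = 0.0820 for ACSL1). The experiments also differ in the agent, its duration, the control treatment and the gene models, and these cannot be told apart from the target. Leaving out 1 library changed the sterol count to between 2, without SAE2 kd replicate 1, and 13, without either TFAP2C siRNA replicate. It was 5 and 4 without control siRNA replicates 1 and 2, 3 without either control replicate and 6 without SAE2 kd replicate 2.

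**Figure D4:**
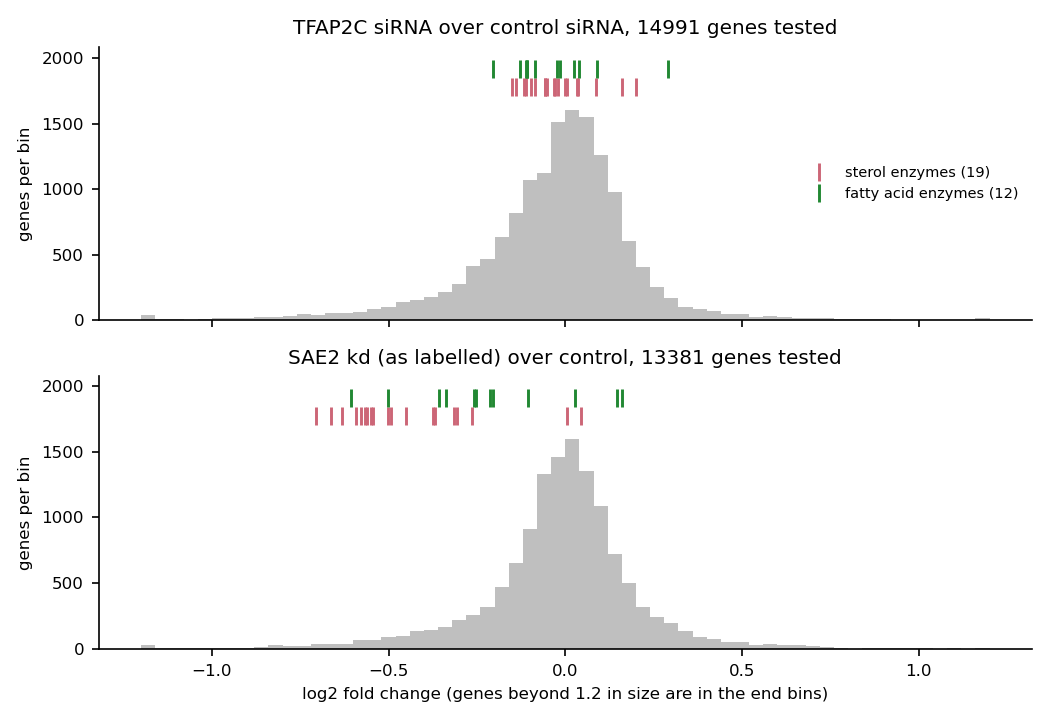
Number of genes (y axis) by log2 fold change (x axis) over all genes tested, in grey, for TFAP2C siRNA (top) and SAE2 kd (bottom), with a tick for each sterol enzyme (red) and fatty acid enzyme (green). The sterol ticks centre on a median of -0.03 in TFAP2C siRNA and of -0.50 in SAE2 kd.

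Genes that control the pathway were read beside the enzymes. Of 12 genes of SREBP control and sterol uptake, 6 were lower and 1 was higher in SAE2 kd, where 4.47% of all genes tested were called lower and 5.52% higher. INSIG1, which holds SREBP in the endoplasmic reticulum and is itself an SREBP target, was at 121 and 127 CPM in control and 52.9 and 66.2 CPM in SAE2 kd (-1.06, SE 0.07, adjusted p = 5.99e-13). STARD4, a cholesterol carrier, was lower by a log2 fold change of -0.81, LPIN1, a lipid phosphatase, by -0.68, and SREBF2, which encodes SREBP2, by -0.23. The higher gene was MBTPS1 (0.20, adjusted p = 0.00508), a protease that cuts SREBP, named after its value was seen. Of the 12, none passed in TFAP2C siRNA, and none had an unadjusted p under 0.05, where 1889 of all 14991 genes tested had one.

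A further list held 17 other synthesis enzymes of both arms, of which 15 were tested in each experiment. In SAE2 kd 5 were lower and none higher, beside the same 4.47% and 5.52% over all genes. Among them were the elongase ELOVL3 (-0.60, adjusted p = 0.0233), the desaturase SCD5 (-0.41, adjusted p = 0.000105) and the acyl-CoA synthetase ACSL4 (-0.24, adjusted p = 0.00567). In TFAP2C siRNA 1 passed, the acyl-CoA synthetase ACSL5, which was higher (0.43, adjusted p = 0.0284). There, 0.740% of 14991 genes tested were called in either direction. None of the 15 genes of fatty acid oxidation passed in either experiment by edgeR. Nor did any tested gene of an LXR list (4 in SAE2 kd, 5 in TFAP2C siRNA). That list held ABCA1, ABCG1, APOE, and NR1H3 and NR1H2, which encode the LXR receptors themselves. ABCA1 and ABCG1 reached at most 1.82 CPM in the SAE2 kd experiment. In the siRNA experiment ABCG1 reached at most 0.85 CPM and APOE 1.85 CPM. At such low levels the absence of a call says little about these genes. At an unadjusted p under 0.05 there were 3 oxidation genes and 1 gene of the LXR list, ABCG1, in SAE2 kd, all lower. Of all 13381 genes tested, 1468 were lower at that p. In TFAP2C siRNA there were none of these genes, where 1889 of all 14991 genes tested were under it.

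In SAE2 kd the epithelial markers EPCAM (0.15), KRT8 (0.18) and KRT18 (0.25) were higher and ELF3 was lower (-0.54), and their part in the enzyme results was not tested. ACAT2 overlaps TCP1 on the opposite strand by 558 bp in both tables, and TCP1 had a mean of 11801 counts in the SAE2 kd experiment, so the ACAT2 count may hold reads of TCP1. Without 1 library at a time, 22 or 23 of the 24 enzymes called in SAE2 kd were counted. FADS1 lost its call without control replicate 1, control replicate 2 or SAE2 kd replicate 2 (highest adjusted p = 0.113), and NSDHL without control replicate 2 or SAE2 kd replicate 1 (highest adjusted p = 0.0809). By DESeq2, NSDHL (0.0698) and HSD17B7 (0.0784) did not pass, and with all 8 libraries in 1 fit SC5D (0.0614) and FADS1 (0.0669) did not. Scaling by library size alone added TM7SF2 (0.0470) and turned the split of all calls from 738 higher and 598 lower to 588 higher and 805 lower.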

How the data were processed

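Messenger RNA was sequenced in 8 libraries of the HCT116 Tet-On shSAE2 line. The authors aligned reads with TopHat2 and counted them per gene with HTSeq 0.9.1, and deposited raw counts with gene lengths. The labels name hg19. The SAE2 kd table has hg19 positions, while positions in the siRNA table are of GRCh38 and its gene list is longer. It lists 37 mitochondrial genes (9.79% to 9.96% of counts) and the SAE2 kd table lists 0.

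Each table was fitted alone, from the deposited counts, with edgeR 4.0.16 in R 4.3.3 (filterByExpr, TMM, quasi-likelihood test, Benjamini-Hochberg over all genes tested, threshold 0.05). edgeR's common dispersion came to a coefficient of variation of 6.28% for the siRNA table and 3.56% for the SAE2 kd table. Intervals are 95% from the fit. An interaction fit over 8 libraries tested the difference between the experiments. With 2 libraries per group no rank or permutation test of a single gene can reach 0.05, so only the fit across genes was used. Scripts were tested on simulated data. Alternatives were RLE and library-size scaling, DESeq2 1.42.0, other filters (none, or at least 10 counts in every library), a block for replicate number, 1 fit for all libraries and leaving out each library.

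All 31 enzymes were described, with targets and, of the other lists, up to 5 genes per list and experiment that passed, by size of fold change. Some genes of these lists are not reported here. Members and lists were chosen with earlier results of these data known. The choice of promoter start was changed after the first counts were seen, and both counts are given.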

Additional observations from a re-analysis of the deposited data

Results flagged for a closer look

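For 13 enzymes the change in TFAP2C siRNA differed from the change in SAE2 kd by the interaction test (edgeR, adjusted p under 0.05 over 13179 genes). In each case the change in SAE2 kd was the lower. The change in TFAP2C siRNA less the change in SAE2 kd, on the log2 scale, was 0.52 for ACAT2, 0.47 for HMGCS1, 0.69 for MVK and 0.53 for MVD in the mevalonate segment. It was 0.61 for IDI1, 0.38 for FDPS and 0.43 for FDFT1 in the isoprenoid segment. From squalene onward it was 0.38 for SQLE, 0.51 for LSS, 0.52 for EBP and 0.53 for DHCR7. In the fatty acid arm it was 0.43 for FASN and 0.58 for SCD. DHCR7, MVD and SCD passed also with any 1 library left out, while the calls of the other 10 were lost without at least 1 library. With a replicate block, EBP, FASN, FDPS and SQLE did not pass.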

How the results depend on the processing

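In SAE2 kd the 24 calls among the enzymes kept their direction under all alternatives, and the sterol and fatty acid counts stayed within 15 to 16 and 7 to 8 when 1 library was left out. Over all genes, 1336 calls became 673 by DESeq2, 696 with all 8 libraries and 833 to 1271 without 1 library, and 833 was without control replicate 2. The sterol median was -0.54 to -0.46 and the fatty acid median -0.26 to -0.21 without 1 library, and the latter -0.26 by library size only. In TFAP2C siRNA 111 calls became 398 with no filter, 172 with a replicate block, 271 with all 8 libraries and 49 to 2825 without 1 library. Same-numbered libraries deviated with r = -0.14 there and 0.07 in SAE2 kd, so the numbers were not taken as pairs, and a crossed replicate block, chosen after seeing the data, gave 467. The sterol counts were 0 to 3 lower and 0 to 2 higher without 1 library, the fatty acid counts 0 to 2 lower and 0 to 2 higher (1 higher with all 8 libraries or the crossed block), the sterol median -0.065 to 0.024 and the fatty acid median -0.062 to -0.0054. The 313 differences became 173 with a replicate block and 113 to 1554 without 1 library, the sterol count 2 to 13, and the fatty acid count 1 with the block and 1 to 5 without 1 library. The cause was not tested.

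Values that turned sign were small. In TFAP2C siRNA, HSD17B7 was -0.024 by library size only and -0.0049 with all 8 libraries, DHCR7 was 0.00035 by RLE, 0.00034 by DESeq2 and 0.0043 with no filter, and ACACA was -0.0046 by library size only. GGPS1 in SAE2 kd was -0.020 by library size only. Without 1 library, TFAP2C siRNA log2 fold changes ran from -0.17 to 0.055 for ACAT2, -0.074 to 0.14 for MVK, -0.065 to 0.024 for MVD, -0.16 to 0.035 for FDPS, -0.16 to 0.11 for GGPS1, -0.13 to 0.021 for LSS, -0.047 to 0.11 for CYP51A1, -0.088 to 0.024 for TM7SF2, -0.011 to 0.18 for NSDHL, -0.070 to 0.078 for HSD17B7, -0.28 to 0.071 for SC5D and -0.048 to 0.048 for DHCR7. They ran from -0.057 to 0.13 for ACLY, -0.019 to 0.069 for ACACA, -0.015 to 0.19 for FASN, -0.071 to 0.041 for SCD and -0.059 to 0.014 for FADS1. In SAE2 kd they ran from -0.12 to 0.12 for GGPS1, -0.064 to 0.11 for FADS2 and -0.11 to 0.038 for UBA2. The difference ran from -0.16 to 0.094 for GGPS1 and -0.11 to 0.081 for ELOVL5.

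With 2 libraries per group the spread rests on few values, and where a group was left with 1 library that library was assumed to vary like the others. Low genes such as HSD17B7 had the widest intervals.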
